A study of Mus musculus with 12 samples.

Results

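Nanog, Esrrb, Klf2, Klf4, Klf5, Tfcp2l1, Tbx3, Zfp42 and Nr5a2 encode the transcription factors most often used to define naive pluripotency, the ground state of mouse embryonic stem cells (ESCs). These 9 genes were chosen by name, by no threshold on their values, from the 24736 genes of a transcriptome table covering 12 libraries. The choice was made with earlier results of these data known. All 9 passed the filter on low counts, as did 14196 genes in all. Levels are given as TPM, transcript abundances corrected for transcript length and library size. Across the 4 conditions their summed level went from 44.7 ± 3.04 TPM in EpiLC to 71.6 ± 12.3 TPM in CEpiLC, 180 ± 22.6 TPM in SOX2-OFF and 324 ± 6.55 TPM in SOX2-ON (mean ± SD, n = 3), and the 12 library sums did not overlap between groups.

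The libraries measured polyadenylated RNA of mouse ESCs after 72 h of differentiation, as 3 biological replicates in each of 4 groups. Every culture received bFGF at 10 ng/ml and LGK974 at 5 µM, which blocks the secretion of WNT ligands. EpiLC (epiblast-like cells) were wild type (WT) and received nothing else. CEpiLC (caudal epiblast-like cells) were WT and were exposed from day 2 to day 3 to CHIR99021, a GSK3 inhibitor that activates WNT signalling. SOX2-OFF and SOX2-ON cells, labelled Sox2-/-, were exposed to CHIR99021 in the same way and carried a Sox2 transgene controlled by doxycycline (Dox). Dox was withdrawn in SOX2-OFF and held at 1 µg/ml in SOX2-ON. The transgene sat in the Hprt locus of cells that express the Dox-dependent activator rtTA from Rosa26, and endogenous Sox2 had been ablated by gene editing in clones of this line. The WT cells were the parental HM1 TetON line, which served as the control. SOX2-ON against SOX2-OFF was thus a comparison within the SOX2 TetON line in which Dox changed together with SOX2, whereas every comparison with EpiLC or CEpiLC also compared that line with WT cells. A SOX2 TetON culture without CHIR99021 was not analysed here.

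Naive ESCs hold these factors in a mutually supporting network around OCT4 and SOX2. LIF, acting through STAT3, supports Klf4 and Tfcp2l1, while inhibition of GSK3 relieves repression by the WNT effector TCF7L1, of which Esrrb, Klf2, Tfcp2l1 and Nanog are known targets. On the transition to the epiblast-like state most of the network is switched off, and OTX2, FGF5 and DNMT3B are switched on. Several members also act outside naive cells, such as Tbx3, Klf5 and Nr5a2 in endoderm and epithelia, and Nanog in the posterior epiblast and germ cells.

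Promoter windows of RefSeq (GRCm38.p6, the assembly also called mm10) were found for 7 of the 9 genes, in 10 windows of which the 250 bases before the start were searched on both strands. Klf5 and Tbx3 were not in the table used. The stretches below are the 3 places where an octamer motif (TTTGCAT, the letters read by OCT4) or a SOX motif (ACAATG or ACAAAG) was found, and they are shown because SOX2 was the factor manipulated and OCT4 is its partner. Matches are in capitals, and sequences are read 5′ to 3′ on the strand of the gene.
Nanog, chr6:122707402-122707439, plus strand: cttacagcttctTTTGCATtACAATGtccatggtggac
Zfp42, chr8:43307176-43307206, minus strand: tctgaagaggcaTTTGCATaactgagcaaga
Nr5a2, chr1:136953788-136953817, minus strand: gttctttttaaaACAAAGcgctccgggtga
The Nanog stretch lies 87 to 50 bases before the first of its annotated starts and holds an octamer and a SOX motif 1 base apart. It counts in 2 windows because a further start of Nanog lies downstream. The Zfp42 stretch lies 197 to 167 bases before its start, and neither it nor the Nanog stretch falls in an annotated gene. The Nr5a2 stretch lies 187 to 158 bases before an internal start and is intronic to the longer transcript.

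Of all 32851 windows searched, 4.12% held the octamer, 25.2% either SOX motif and 1.3% both, against 3, 3 and 2 of the 10 windows here, the last being the overlapping Nanog windows. KLF/SP motifs (GGGCGGG or GGGTGTG) were found in 4 windows, those of Esrrb, Klf2, Klf4 and Zfp42, and in 28.5% of all windows. No window held the TCF/LEF motif ATCAAAG (3.21% of all) or AAGGTCA, the motif of orphan nuclear receptors (4.08% of all). Apart from KLF/SP matches in Klf4 and Zfp42, no match overlapped another. These are matches of letters in short windows and no measure of binding.

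Library totals ran from 10408252 to 27337740 expected counts. Sox2, the manipulated gene, read 137 ± 29.7 TPM in EpiLC, 10.4 ± 3.01 TPM in CEpiLC, 16.5 ± 4.48 TPM in SOX2-OFF and 187 ± 24.0 TPM in SOX2-ON. It was higher in SOX2-ON than in SOX2-OFF (log2 fold change 3.44, SE 0.22, adjusted p 3.11e-07), and also higher in SOX2-OFF than in CEpiLC (0.65, SE 0.24, adjusted p 0.0367). In the SOX2 TetON line these values do not separate RNA of the transgene from RNA of the edited endogenous gene. Otx2 and Fgf5, which mark epiblast-like cells, were at 165 ± 11.4 and 79.5 ± 4.64 TPM in EpiLC. T, which marks the primitive streak, was at 711 ± 215 TPM in CEpiLC, 809 ± 19.3 TPM in SOX2-OFF and 152 ± 17.9 TPM in SOX2-ON. SOX2-ON replicate 3 stood apart in markers of extraembryonic endoderm (757 TPM summed over 14 genes, against 313 and 349 TPM in replicates 1 and 2). The member fold changes that moved most in proportion when it was left out are given with and without it. Other SOX2-ON values moved less in proportion, such as Tbx3 against CEpiLC from 5.93 to 5.49 on the log2 scale. Across genes of chromosomes 6 and 8 that averaged at least 4 log2 CPM (library-scaled counts), the SOX2 TetON line exceeded WT. The medians were 0.58 (377 genes) and 0.61 (470 genes) on the log2 scale, with no overlap between the lines. Chromosome 11, which holds no member, was shifted the other way (−0.52, 678 genes), also without overlap. Counts given for the other gene lists are without removal of these shifts. Nanog lies on chromosome 6, and Klf2 and Zfp42 on chromosome 8. On the 5 chromosomes of the other members the line medians differed by at most 0.0472.

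The levels of the 9 factors are described first, by library in the order of replicates 1, 2 and 3. Nanog (chr6:122707489-122714633), a homeodomain protein and the founding naive factor, read 12.97, 20.7 and 15.7 TPM in EpiLC and 10.9, 31.2 and 6.35 TPM in CEpiLC. In the SOX2 TetON line Nanog read 51.9, 68.0 and 31.7 TPM without Dox and 116, 121 and 50.0 TPM with it. The WT groups overlapped each other and lay below every SOX2 TetON library, and the SOX2-OFF and SOX2-ON ranges overlapped through SOX2-ON replicate 3.

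Esrrb (chr12:86361117-86521628) encodes an orphan nuclear receptor that can stand in for Nanog in self-renewal. It was low in WT cells, at 1.29, 0.96 and 1.21 TPM in EpiLC and 1.68, 1.16 and 1.17 TPM in CEpiLC. It reached 7.70, 5.91 and 2.18 TPM in SOX2-OFF and 18.2, 15.0 and 16.7 TPM in SOX2-ON. These 2 ranges overlapped neither each other nor WT, while the WT groups overlapped. Nr5a2 (chr1:136842562-136960448), which encodes the orphan receptor LRH-1 that binds control regions of Pou5f1, was close to absent outside SOX2-ON. It read 0.25, 0.06 and 0.08 TPM in EpiLC, from 10, 2 and 2 counts. In CEpiLC it read 0.74, 0.52 and 0.60 TPM, and in SOX2-OFF 0.39, 0.41 and 0.34 TPM. The SOX2-ON libraries stood far above all others, at 28.2, 23.6 and 32.5 TPM.

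The Krüppel-like factors differed among themselves. Klf2 (chr8:72319062-72321654) was the only member with its lowest mean in SOX2-OFF. It read 7.52, 5.36 and 11.7 TPM in EpiLC, 3.05, 3.57 and 0.96 TPM in CEpiLC, 1.44, 0.87 and 1.63 TPM in SOX2-OFF and 23.8, 20.9 and 16.7 TPM in SOX2-ON. CEpiLC and SOX2-OFF overlapped, and EpiLC and SOX2-ON did not overlap any other group. Klf4 (chr4:55527137-55532475), a reprogramming factor, read 1.03, 0.88 and 0.73 TPM in EpiLC and 2.01, 1.39 and 1.58 TPM in CEpiLC. It was higher in both SOX2 TetON groups, at 7.83, 7.43 and 7.06 TPM in SOX2-OFF and 8.88, 9.49 and 13.3 TPM in SOX2-ON. Klf5 (chr14:99298691-99313412), also a factor of the trophectoderm, was the most abundant member in CEpiLC and SOX2-OFF. It read 11.7, 11.04 and 11.8 TPM in EpiLC, 32.9, 32.6 and 39.9 TPM in CEpiLC, 73.9, 65.2 and 72.0 TPM in SOX2-OFF and 51.2, 42.4 and 87.1 TPM in SOX2-ON, where only replicate 3 exceeded the SOX2-OFF range.

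Tfcp2l1 (chr1:118627923-118685168), a CP2-family factor downstream of LIF, read 1.44, 1.51 and 1.62 TPM in EpiLC and 6.49, 5.29 and 4.80 TPM in CEpiLC. SOX2-OFF libraries, at 6.55, 5.62 and 3.24 TPM, spanned the CEpiLC range, and SOX2-ON libraries lay above it at 14.1, 16.1 and 13.98 TPM. Tbx3 (chr5:119670534-119684724), a T-box factor, split the libraries by line. It read 0.14, 0.10 and 0.30 TPM in EpiLC and 0.22, 0.36 and 0.31 TPM in CEpiLC, against 10.0, 11.9 and 10.8 TPM in SOX2-OFF and 11.3, 14.7 and 27.9 TPM in SOX2-ON. Zfp42 (chr8:43295067-43307009), which encodes the naive marker REX1, rose in order through all 4 groups without overlap. It read 5.02, 5.17 and 3.89 TPM in EpiLC, 7.25, 9.69 and 8.31 TPM in CEpiLC, 30.0, 31.5 and 25.7 TPM in SOX2-OFF and 58.0, 62.9 and 58.8 TPM in SOX2-ON.

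**Figure D1:**
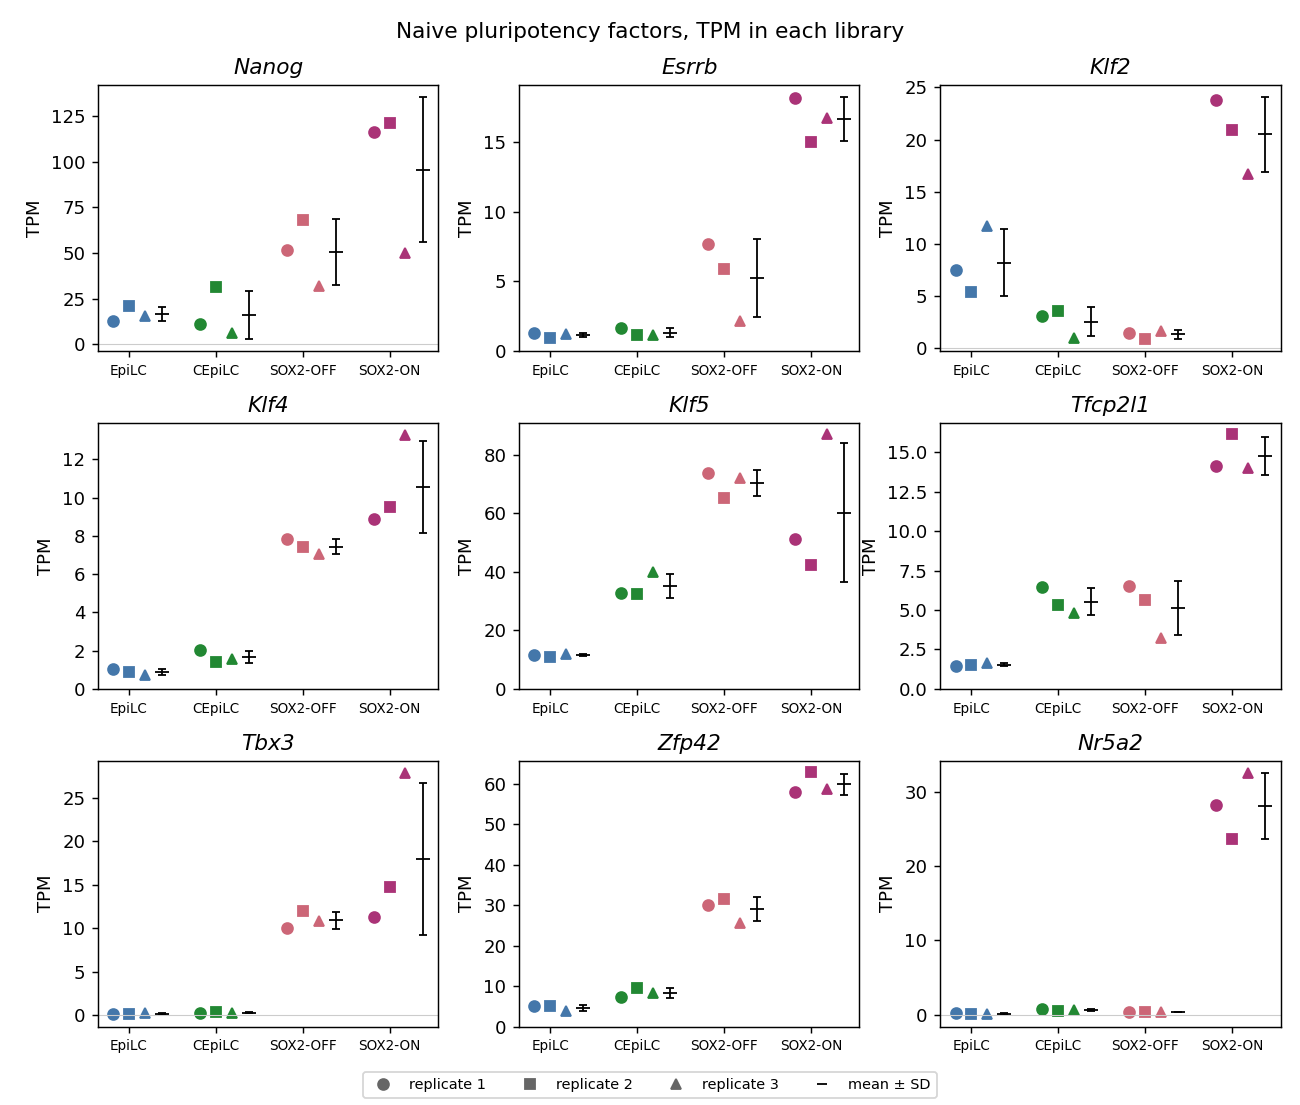
TPM of each of the 9 naive factors (vertical axes, linear) in the 12 libraries by group, with a point for each replicate and the group mean ± SD (n = 3) beside it. Nr5a2 is near 0 outside SOX2-ON (23.6 to 32.5 TPM), whereas Tbx3 and Klf4 are raised in both SOX2-OFF and SOX2-ON.

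The make-up of the set shifted with condition. Nanog held 36.8% of the summed TPM of the 9 genes in EpiLC and Klf5 25.7%, and in CEpiLC Klf5 took 49.0%. In SOX2-OFF Klf5 (39.0%), Nanog (28.0%) and Zfp42 (16.1%) led. In SOX2-ON Nanog was again first (29.5%), and Nr5a2, which ranked last in EpiLC and SOX2-OFF, held 8.66%. Between replicates of a group the coefficient of variation was 4.37% for Zfp42 in SOX2-ON and 3.58% for Klf5 in EpiLC, but 82.1% for Nanog in CEpiLC and 80.3% for Nr5a2 in EpiLC, where Nr5a2 rested on few counts.

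The comparison of CEpiLC with EpiLC addressed the response of WT cells to CHIR99021. Tfcp2l1, Klf5, Klf4, Zfp42 and Nr5a2 rose and Klf2 fell, by an adjusted p of at most 0.05 in edgeR's quasi-likelihood test. These 5 higher and 1 lower of 9 stand beside 22.1% and 20.1% of all genes tested (42.2% in either direction), and the median log2 fold change of the members was 0.82 beside 0.0121 for all genes. In bulk RNA a change in the number of cells that express a gene and a change in RNA per cell cannot be told apart.

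Tfcp2l1 rose 3.68-fold (log2 fold change 1.88, SE 0.20, adjusted p 9.85e-06) and Klf5 rose 3.05-fold (1.61, SE 0.22, adjusted p 7.50e-05). Nr5a2 had the largest log2 fold change among the 9 (2.15, SE 0.40, adjusted p 0.000901), from 0.13 to 0.62 TPM on average, so its level remained below that of every other member except Tbx3. Klf4 (0.92, SE 0.23, adjusted p 0.00603) and Zfp42 (0.82, SE 0.14, adjusted p 0.000481) rose less than 2-fold. Klf2 moved the other way (−1.57, SE 0.35, adjusted p 0.00284), a 2.98-fold lower level in CEpiLC. For each of these 6 genes the groups did not overlap, as for 52.3% of all genes. Nanog (0.0061, SE 0.48, adjusted p 0.994), Esrrb (0.26, SE 0.38, adjusted p 0.617) and Tbx3 (0.72, SE 0.68, adjusted p 0.42) did not pass the test. The Nanog difference had no stable sign, and without CEpiLC replicate 2, the highest of the WT libraries, it was −0.84 (adjusted p 0.152).

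SOX2-OFF against CEpiLC compared cells labelled Sox2-/-, with Dox withdrawn, with WT cells under the same CHIR99021 treatment. Sox2 RNA itself was not lower but higher in SOX2-OFF, as given above. It may include RNA of the edited gene and is no measure of SOX2 protein, which the paper reports to decline after Dox removal. Nanog, Esrrb, Klf4, Klf5, Tbx3 and Zfp42 were higher in SOX2-OFF, whereas Klf2, Tfcp2l1 and Nr5a2 did not pass the test. The 6 higher and 0 lower of 9 compare with 23.6% higher and 24.9% lower among all genes tested, 48.5% in all, and the median of the members was 1.65 beside −0.0129. At an unadjusted p under 0.05 Klf2 was also lower (p 0.0312). With the shift of chromosomes 6 and 8 removed, the count became 5 higher and 1 lower, as Nanog was not called (1.07, SE 0.47, adjusted p 0.0812) and Klf2 was called lower (−1.66, SE 0.44, adjusted p 0.00892).

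Tbx3 differed most, by 38.9-fold (log2 fold change 5.28, SE 0.38, adjusted p 4.08e-07). Klf4 was 4.45-fold higher (2.15, SE 0.19, adjusted p 1.65e-06) and Esrrb 3.93-fold higher (1.97, SE 0.33, adjusted p 0.000304). Zfp42 (1.82, SE 0.12, adjusted p 2.71e-07) and Nanog (1.65, SE 0.47, adjusted p 0.0104) lie on the chromosomes shifted between the lines, and Klf5 was 2.04-fold higher (1.03, SE 0.20, adjusted p 0.000818). Without CEpiLC replicate 2 the Nanog value was 2.495 (adjusted p 0.0006). Klf2 was at −1.06 (SE 0.44, adjusted p 0.0617), and without CEpiLC replicate 3, its lowest CEpiLC library at 9 counts, it passed the test (−1.34, adjusted p 0.0102). Tfcp2l1 was at −0.09 (SE 0.18, adjusted p 0.701). Nr5a2 was at −0.71 (SE 0.34, adjusted p 0.102), although its 3 SOX2-OFF values lay below the 3 CEpiLC values. Groups without overlap, as in Nr5a2 and the 6 called members, occurred in 55.3% of all genes.

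With SOX2 held high by Dox, all 9 members exceeded their CEpiLC level. SOX2-ON against CEpiLC gave 9 higher of 9, beside 27.9% of all genes called higher and 28.6% called lower (56.5% in all), with a median of 2.80 beside −0.0121. The groups of every member were free of overlap, as in 59.9% of all genes.

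The largest differences were in Tbx3 (log2 fold change 5.93, SE 0.38, adjusted p 7.12e-08) and Nr5a2, which rose 43.0-fold (SE 0.22 on the log2 scale). Esrrb followed with an 11.8-fold and Klf2 with a 7.42-fold higher level. Zfp42 (2.80, SE 0.12, adjusted p 5.71e-09), Klf4 (2.60, SE 0.19, adjusted p 2.10e-07) and Nanog were 5.71 to 6.99-fold higher. Tfcp2l1 (1.37, SE 0.18, adjusted p 2.78e-05) and Klf5 (0.75, SE 0.20, adjusted p 0.00574) changed least. The Klf5 value fell to 0.41 (adjusted p 0.0109) without SOX2-ON replicate 3.

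Within the SOX2 TetON line, the members fell into a group that was higher with Dox and a group that was not called. SOX2-ON against SOX2-OFF gave 5 higher and 0 lower of 9, beside 14.8% higher and 14.1% lower among all genes (28.8% in all), and a median of 0.99 beside −0.00753. Nr5a2, Klf2, Esrrb, Tfcp2l1 and Zfp42 rose. Nanog, Klf4, Klf5 and Tbx3 did not pass the test.

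Nr5a2 rose 70.2-fold (log2 fold change 6.13, SE 0.24, adjusted p 1.37e-08) and Klf2 15.4-fold (3.95, SE 0.39, adjusted p 9.15e-06). Esrrb (1.59, SE 0.29, adjusted p 0.00109), Tfcp2l1 (1.46, SE 0.18, adjusted p 6.02e-05) and Zfp42 (0.99, SE 0.11, adjusted p 2.93e-05) rose 3.00, 2.75 and 1.98-fold. Among the other 4 the estimates were 0.86 for Nanog (SE 0.43, adjusted p 0.157), 0.65 for Tbx3 (SE 0.25, adjusted p 0.0693), 0.45 for Klf4 (SE 0.17, adjusted p 0.0608) and −0.28 for Klf5 (SE 0.19, adjusted p 0.306), and a p above the threshold does not show that they were equal. Klf4 was the only one of these 4 whose groups did not overlap, as was the case for the 5 called members and for 43.8% of all genes. Without SOX2-ON replicate 3 Klf5 was called lower in SOX2-ON (−0.63, adjusted p 0.00168), Klf4 stood at 0.26 (adjusted p 0.26), Tbx3 at 0.19 (adjusted p 0.425) and Nanog at 1.17 (adjusted p 0.0541), whereas without SOX2-ON replicate 1 Tbx3 was called higher (0.89, adjusted p 0.0146).

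**Figure D2:**
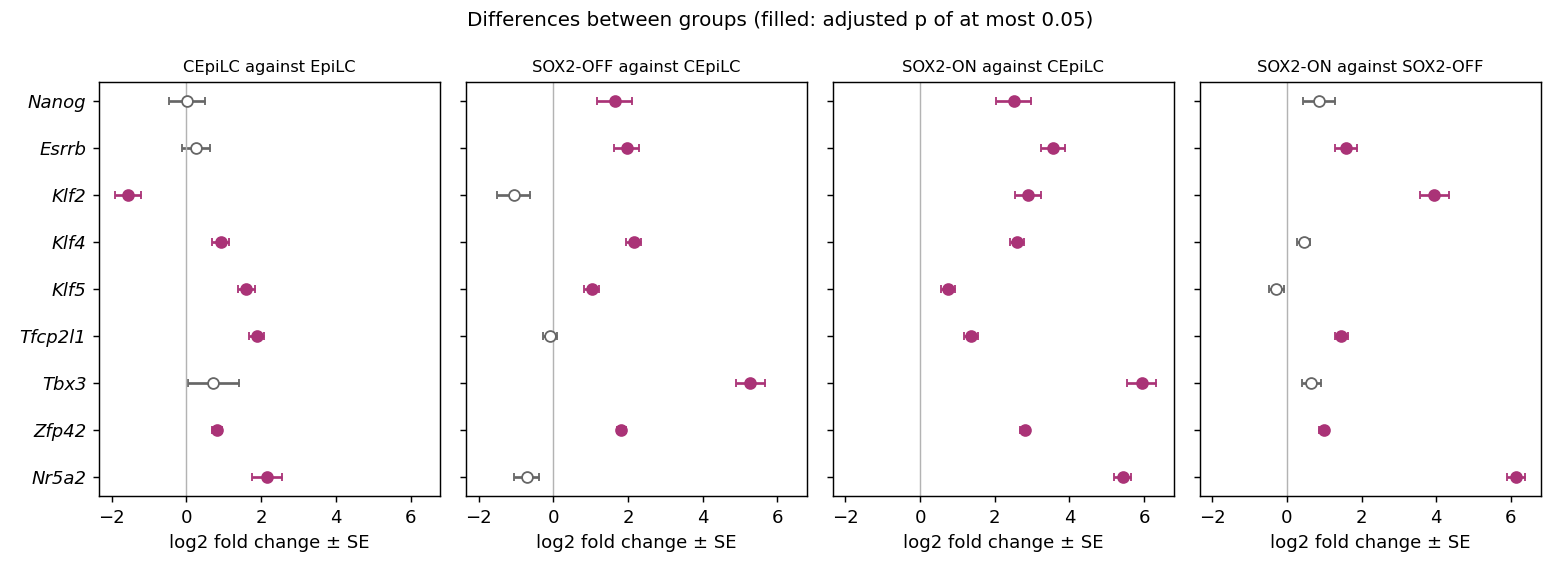
Log2 fold change ± SE (horizontal axes, from the edgeR model, 3 libraries a group) of the 9 factors in 4 comparisons, filled where the adjusted p is at most 0.05. All 9 are filled and to the right of 0 in SOX2-ON against CEpiLC, and 5 in SOX2-ON against SOX2-OFF, led by Nr5a2 (6.13) and Klf2 (3.95).

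Read against EpiLC, which had neither CHIR99021 nor the transgene, SOX2-ON was again higher in 9 of 9 members, beside 30.7% of all genes called higher and 59.8% called in either direction, with a median of 3.52 beside 0.0148 for all genes, and no groups overlapped, as in 66.1% of all genes. SOX2-OFF was higher in 8 of 9, beside 31.5%, and lower in Klf2, beside 30.6% called lower and 62.1% in either direction, with a median of 2.23 beside 0.0109, and again no groups overlapped, as in 69.2% of all genes. In SOX2-ON Nr5a2 was at 7.57 (SE 0.27, adjusted p 9.89e-10) and Tbx3 at 6.66 (SE 0.41, adjusted p 3.74e-08) on the log2 scale. Klf2 was at 1.32 (SE 0.31, adjusted p 0.00232), the smallest of the 9, and at −2.63 (SE 0.40, adjusted p 7.94e-05) in SOX2-OFF. Nr5a2 in SOX2-OFF was at 1.44 (SE 0.46, adjusted p 0.0151), which became 1.03 (adjusted p 0.0673) without EpiLC replicate 2 and 2.49 (adjusted p 0.000965) without EpiLC replicate 1. These comparisons share libraries with those above and are not separate evidence.

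For the members on the shifted chromosomes, the comparisons between lines were also made after the median shift of each chromosome had been removed from every library. Zfp42 stayed higher in SOX2-OFF (1.22, SE 0.13, adjusted p 1.50e-05) and in SOX2-ON (2.20, SE 0.13, adjusted p 5.74e-08) than in CEpiLC. Nanog stayed higher in SOX2-ON (1.94, SE 0.46, adjusted p 0.00381), but in SOX2-OFF its difference from CEpiLC (1.07, SE 0.47, adjusted p 0.0812) and from EpiLC (1.06, SE 0.47, adjusted p 0.0668) was no longer called. The Klf2 values also moved down. Its lower level in SOX2-OFF than in CEpiLC was now called (−1.66, SE 0.44, adjusted p 0.00892), and its higher level in SOX2-ON than in EpiLC was not (0.70, SE 0.31, adjusted p 0.0697), while SOX2-ON still exceeded CEpiLC (2.29, SE 0.34, adjusted p 0.000128). The comparison of SOX2-ON with SOX2-OFF was within the line and stayed at 3.94 for Klf2, 0.98 for Zfp42 and 0.86 for Nanog.

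**Figure D3:**
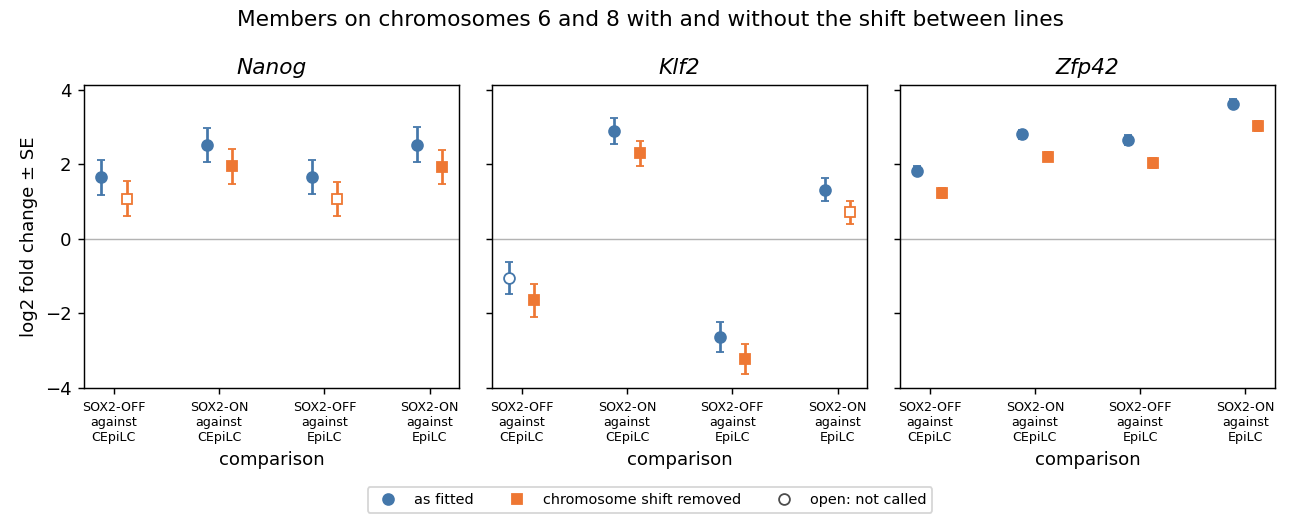
Log2 fold change ± SE (vertical axis) of Nanog, Klf2 and Zfp42 in the 4 comparisons between lines, as fitted (circles) and with the chromosome shift removed (squares), open where not called. The shift removed moves Nanog in SOX2-OFF to 1.07 and 1.06, where it is open, and Klf2 in SOX2-OFF against CEpiLC to −1.66, where it is filled.

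Replicates of the same group departed from their means in different directions for different members. Nanog was lowest in replicate 3 of CEpiLC, SOX2-OFF and SOX2-ON, by 0.99, 0.58 and 0.85 below the group mean in log2 CPM (library-scaled counts). In SOX2-OFF replicate 3 Esrrb was 1.05 and Tfcp2l1 0.58 below the mean, while Klf4, Klf5 and Tbx3 were within 0.06 of it. In SOX2-ON replicate 3 the opposite arrangement was seen, with Tbx3 0.73, Klf5 0.58 and Klf4 0.34 above the mean. Klf2 was lowest in CEpiLC replicate 3, by 1.08.

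**Figure D4:**
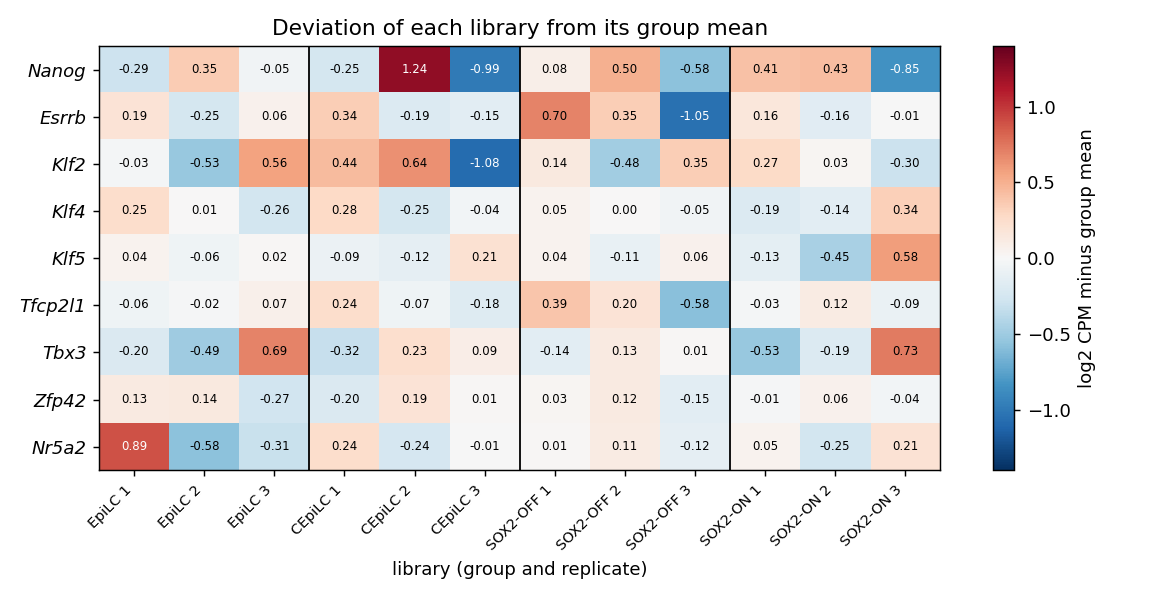
Difference of log2 CPM from the group mean for the 9 factors (rows) in the 12 libraries (columns), printed in each cell and coloured from blue (below) to red (above). The widest departures are those of Nanog in CEpiLC replicates 2 (1.24) and 3 (−0.99), Klf2 in CEpiLC replicate 3 (−1.08) and Esrrb in SOX2-OFF replicate 3 (−1.05).

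Most markers of extraembryonic endoderm were higher in both SOX2 TetON groups than in CEpiLC, as were Tbx3, Klf4 and Klf5. Summed over the 14 listed genes, they read 199 to 228 TPM in EpiLC, 137 to 155 TPM in CEpiLC, 631 to 770 TPM in SOX2-OFF and 313 to 757 TPM in SOX2-ON, with Sparc, a matrix gene not limited to endoderm, holding most of the WT sums. Of 12 tested, 11 were called higher in SOX2-OFF and 10 in SOX2-ON than in CEpiLC, beside 23.6% and 27.9% of all genes. In SOX2-ON against SOX2-OFF 1 (Gata6) was higher and 4 were lower (median −0.76), beside 14.8% and 14.1% of all genes. Cubn was among the lower. The zinc-finger factor Gata6 read 27.9, 33.2 and 69.7 TPM in SOX2-ON and the receptor Cubn 24.0, 34.2 and 77.4 TPM, highest in replicate 3. In that library Tbx3, Klf5 and Klf4 were also highest and Nanog lowest within SOX2-ON. SOX2-OFF gave another order. Its highest marker sum was in replicate 2 (770 TPM), where Tbx3 (11.9 TPM) and Nanog (68.0 TPM) were highest, Klf5 (65.2 TPM) lowest and Klf4 (7.43 TPM) in between. Afp was at no more than 3 counts in every library of every group, as were Hnf4a and Ttr in the WT groups. The part of endoderm-like cells in the levels of Tbx3, Klf4 and Klf5 was not tested.

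**Figure D5:**
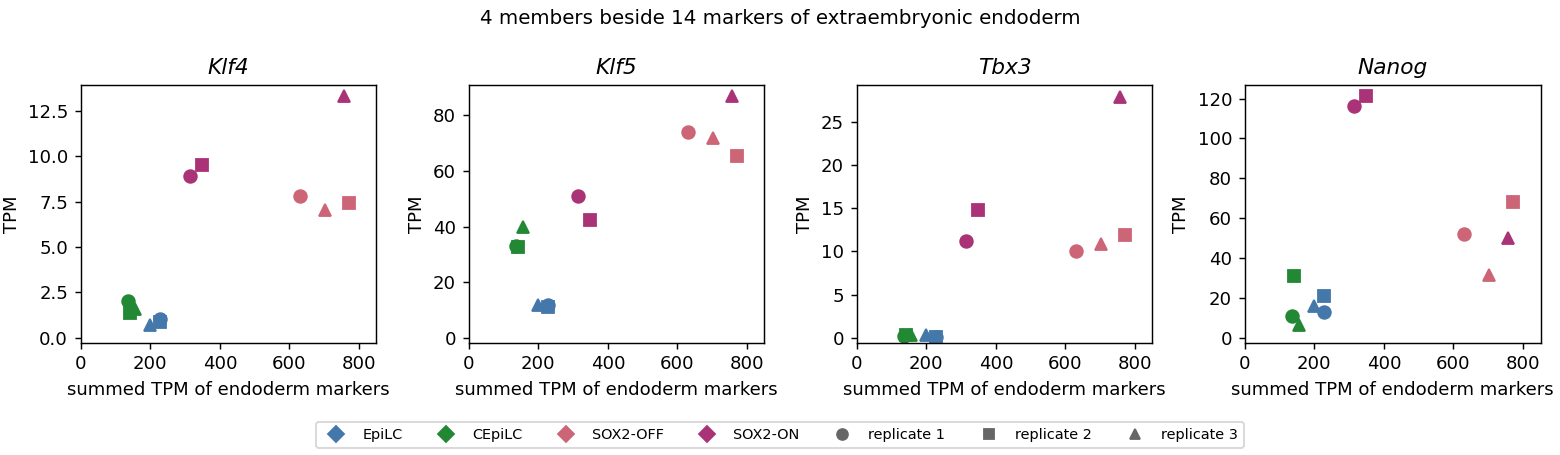
TPM of Klf4, Klf5, Tbx3 and Nanog (vertical axes) beside the summed TPM of 14 extraembryonic endoderm markers (horizontal axes) in the 12 libraries. SOX2-ON replicate 3, at 757 TPM of markers, has the highest Klf4, Klf5 and Tbx3 (13.3, 87.1 and 27.9 TPM) and the lowest SOX2-ON Nanog (50.0 TPM). SOX2-OFF replicate 2, at 770 TPM of markers, has the highest Tbx3 and Nanog but the lowest Klf5 of its group.

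Germ cell markers were higher in SOX2-ON than in SOX2-OFF, as were the members that separated these 2 groups. Their sum over 9 genes was 29.1 to 42.4 TPM in the other 3 groups and 220 to 254 TPM in SOX2-ON. Of 7 tested, 7 were higher in SOX2-ON than in SOX2-OFF, beside 14.8% of all genes. Dppa3 and Tfap2c, which are expressed in naive as well as germ cells, read 123 ± 21.1 and 31.1 ± 9.01 TPM in SOX2-ON. Together they held most of the SOX2-ON sum, and both are also in the list of other naive genes below. The receptor gene Kit read 41.5 ± 5.02 TPM there against 13.2 ± 2.74 TPM in SOX2-OFF, and the helicase gene Ddx4 22.9 ± 0.411 against 9.47 ± 1.37 TPM. Prdm1, a regulator of germ cell specification, read 4.87 ± 0.888 TPM against 0.52 ± 0.0265 TPM. Dazl was also higher in SOX2-ON, but at a low level (1.39 ± 0.382 TPM, against 0.293 ± 0.138 TPM in SOX2-OFF). Dnd1 read 7.08 ± 2.01 TPM in SOX2-ON and 2.73 ± 0.112 TPM in SOX2-OFF. In WT cells Dnd1 was at 8.87 ± 1.33 TPM in EpiLC and 6.31 ± 1.82 TPM in CEpiLC, and SOX2-ON was not called against either. Prdm14 (0.13 ± 0.0854 TPM) and Nanos3 (0.907 ± 0.453 TPM) were low in SOX2-ON as well and were not tested. Feeder fibroblast markers matter because the ESCs were kept on feeders before differentiation. They summed to 45.9 to 69.1 TPM in the SOX2 TetON groups and 62.7 to 134 TPM in WT. Thy1 (28.0 ± 3.21 and 42.1 ± 21.9 TPM in EpiLC and CEpiLC) and Fbln1 (23.1 ± 0.927 and 44.8 ± 5.37 TPM) held most of the WT sums. Against CEpiLC, 1 of 10 was higher and 2 were lower in SOX2-OFF, and 2 were higher and 2 lower in SOX2-ON. Among all genes the shares were 23.6% and 24.9%, and 27.9% and 28.6%. Dcn was higher in both, and Thy1 and Fbln1 were lower in both. By the edgeR test 0 of 10 differed between SOX2-ON and SOX2-OFF, beside 28.8% of all genes. Of the trophoblast markers, Elf5, Tpbpa and Prl3d1 were at no more than 3 counts in every library, while Tfap2a, also a gene of surface ectoderm and germ cells, was at 20.5 ± 3.25 TPM in SOX2-ON. Of the 10 mesoderm markers, 8 were lower in SOX2-ON than in CEpiLC, beside 28.6% of all genes. The part of germ-cell-like cells in the member levels was not tested.

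A further list held 18 other genes of the naive state, among them transcription factors such as Tfap2c and Nr0b1 beside surface, secreted, metabolic and chromatin proteins. Of 17 tested, 4 were higher and 5 lower in CEpiLC than in EpiLC (median 0.24), and 5 were higher and 4 lower in SOX2-OFF than in CEpiLC (median 0.33). In SOX2-ON 14 were higher and 2 lower than in CEpiLC (median 2.09), and 13 were higher and 1 lower than in SOX2-OFF (median 1.38). Among all genes tested 22.1% were higher and 20.1% lower in CEpiLC than in EpiLC, and 23.6% and 24.9% in SOX2-OFF against CEpiLC. The shares were 27.9% and 28.6% in SOX2-ON against CEpiLC and 14.8% and 14.1% in SOX2-ON against SOX2-OFF. These shares also stand beside the counts of the lists below.

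Among them, Dppa3 (4.16, SE 0.28, adjusted p 4.26e-07) and Tdh, the threonine dehydrogenase on which naive ESCs depend, separated SOX2-ON from SOX2-OFF as Nr5a2 did. Tdh read 18.8 ± 1.67 TPM in SOX2-OFF and 215 ± 16.3 TPM in SOX2-ON. Gdf3, a ligand of the TGFβ family, was at 2.37 ± 0.65 TPM without Dox and 48.9 ± 7.93 TPM with it. By contrast Dppa5a (244 ± 35.5 and 242 ± 3.2 TPM) and Fbxo15 (21.8 ± 3.79 and 24.1 ± 2.38 TPM) were raised over CEpiLC in both SOX2 TetON groups and not called between them, as were Tbx3 and Klf4. Gbx2 and Zfp57 were the 2 genes lower in SOX2-ON than in CEpiLC.

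Of 6 genes listed as the core of pluripotency, 4 were higher and 1 lower in SOX2-ON than in CEpiLC (median 0.48), with Utf1 at 2.93 (SE 0.20, adjusted p 1.10e-07). In SOX2-ON against SOX2-OFF 3 were higher and 1 lower (median 0.54), the higher being Sox2, Utf1 (1.27) and Sall4 (0.82) and the lower Tdgf1 (−1.93), a co-receptor of NODAL. Pou5f1, the gene of OCT4, read 887 ± 66.6 TPM in EpiLC, 843 ± 145 TPM in CEpiLC, 851 ± 72.0 TPM in SOX2-OFF and 1075 ± 87.8 TPM in SOX2-ON. Tcf7l1, the repressor of several members, was lower in CEpiLC (18.2 ± 3.14 TPM) than in EpiLC (80.3 ± 4.79 TPM), and was at 31.2 ± 1.31 and 51.9 ± 4.26 TPM in SOX2-OFF and SOX2-ON. Of 8 genes listed as WNT input, 2 were higher and 3 lower in SOX2-ON than in SOX2-OFF (median −0.15). Tcf7l1 (0.69) and the co-repressor gene Tle4 (0.70) were higher, and the WNT target Sp5 (−1.28, SE 0.20, adjusted p 0.000404), Lef1 (−1.06, SE 0.15, adjusted p 0.000144) and Tcf7 (−0.53, SE 0.07, adjusted p 0.000147) were lower. Axin2, also a direct WNT target, was not called between them (93.6 ± 10.4 and 93.8 ± 5.42 TPM). In SOX2-OFF against CEpiLC, 3 of 8 LIF and STAT3 pathway genes were called higher, including the LIF receptor gene Lifr and its partner Il6st. Of the rest, 0 were called lower and 5 were not called, Socs3 and Pim1 among them. Among all genes, 48.5% were called there in either direction. In SOX2-ON against SOX2-OFF 1 of the 8 was higher, 1 was lower and 6 were not called, again including Socs3 and Pim1. Jak2, a kinase of the pathway, was higher in SOX2-ON than in SOX2-OFF (44 ± 2.48 against 17.2 ± 0.89 TPM, SE 0.07 on the log2 scale, adjusted p 1.18e-07), whereas Stat3 was lower (−0.34, SE 0.11, adjusted p 0.0292).

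Genes of the formative and primed states, listed as a contrast, were lower in CEpiLC than in EpiLC in 9 of 12 (median −2.18) and higher in 2. In SOX2-ON against CEpiLC they gave 3 higher and 5 lower (median −0.15). Otx2 (2.40, SE 0.26, adjusted p 6.00e-06) and Dnmt3b (0.58, SE 0.15, adjusted p 0.00519) were called higher there together with Dnmt3l. Dnmt3l, the cofactor of DNA methyltransferases, read 5.69 ± 1.26 TPM in CEpiLC and 63.6 ± 7.95 and 79.4 ± 16.3 TPM in SOX2-OFF and SOX2-ON. Relatives of the members in the KLF, T-box, CP2, nuclear receptor and YY1 families gave 13 higher and 4 lower of 20 tested in SOX2-ON against CEpiLC (median 0.53), and 6 higher and 1 lower in SOX2-ON against SOX2-OFF (median 0.14). Klf6, the most abundant relative of the KLF group in SOX2-ON, read 96.1 ± 14.6 TPM there, and Klf17 was at no more than 3 counts in every library of CEpiLC, SOX2-OFF and SOX2-ON.

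The genes most like each member over the 12 libraries, by the Pearson correlation of log2 CPM among 10864 genes with an average of at least 2 log2 CPM, are given as a description, since the libraries share line, treatment and depth. They were Lrp6 and Agk for Esrrb (r 0.972 for both), Fam117b for Nr5a2 (0.979), Pcyt1b for Klf2 (0.954), Mtpn for Klf4 (0.992), Saraf for Klf5 (0.989), Rabgap1 for Tfcp2l1 (0.988), Slc15a2 for Tbx3 (0.992), Etnk1 for Zfp42 (0.99) and Zbtb44 for Nanog (0.968). Of the 18 genes named by the rule, 2 for each member, 8 lie on chromosome 6 or 8, where 10.2% of all genes lie.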

How the data were processed

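The values are those of 12 libraries in 4 groups of 3 biological replicates, grouped by their labels. The authors trimmed 76 bp single-end, strand-specific reads with cutadapt 1.16, aligned them with STAR 2.5.2a to mm10 and quantified RefSeq genes with RSEM 1.3.0, without pooling replicates. The deposited expected counts are estimates that need not be whole, and between 2.59 and 3.43% of the values in a library were not, although all 108 values of the 9 members were. They were rounded to whole numbers for testing. The deposited TPM values were used only for levels.

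Differences were tested with edgeR 4.0.16 (quasi-likelihood, limma 3.58.1, R 4.3.3) in a model of all 12 libraries with TMM scaling (factors 0.970 to 1.02) and no covariates. The filter filterByExpr kept 14196 of 24736 genes, over which p-values were adjusted by Benjamini-Hochberg, with 0.05 as the threshold for a call. SEs were derived from the F statistic. DESeq2 1.42.0, limma-voom, other scalings and filters, the replicate block, removal of the chromosome shift and leaving out each replicate were alternatives. The study itself used DESeq2. Chromosome medians used genes averaging 4 log2 CPM or more. At 3 counts or fewer in every library of a group, a gene counted as at its floor there. Reads carry no molecular identifiers.

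The members and gene lists were chosen with earlier results of these data known. Named genes were the members, Sox2, T, the genes of the 12 other lists and the 2 genes most like each member. Same-numbered EpiLC and CEpiLC libraries deviated together from their group means (r 0.120, 0.132 and 0.103 across genes), so the numbers were taken to pair them, from the values alone. In each of the other 5 comparisons at least 1 correlation was under 0.1. Single values there were larger, up to 0.201 in SOX2-ON against CEpiLC and 0.179 in SOX2-OFF against CEpiLC. Correlations of this size thus do not show which libraries were paired and which were not. No libraries of a group were duplicates (chi-square per degree of freedom 7.54 to 42.6). The test was checked on simulated counts. Promoter letters are from RefSeq, and protein sequences were not used here.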

Additional observations from a re-analysis of the deposited data

How the results depend on the processing

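The number of members called stayed within 1.5 times the reported number under every alternative, and leaving out each replicate gave 6 to 6 called in CEpiLC against EpiLC, 6 to 7 in SOX2-OFF against CEpiLC, 9 to 9 in SOX2-ON against CEpiLC, 5 to 6 in SOX2-ON against SOX2-OFF, 9 to 9 in SOX2-ON against EpiLC and 8 to 9 in SOX2-OFF against EpiLC. Of 864 recomputed member differences, 837 kept their direction and their side of the threshold, 9 became called, 6 were no longer called and 12 changed sign, and for 43 of 54 member comparisons no alternative changed either. The cause of these changes was not tested.

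The sign changes were in differences that did not pass the test. The log2 fold change of Nanog in CEpiLC against EpiLC was −0.0065 with RLE scaling, −0.0028 with every gene of at least 1 count, −0.0394 in DESeq2, −0.21 in limma-voom, −0.0069 with only the 6 libraries compared, −0.15 with the replicate block, −0.0107 with the chromosome shift removed, −0.15 without EpiLC replicate 1, −0.03 without EpiLC replicate 3 and −0.84 without CEpiLC replicate 2, the lowest value on leaving out a library (the highest was 0.32, without CEpiLC replicate 3). That of Tfcp2l1 in SOX2-OFF against CEpiLC was 0.06 without CEpiLC replicate 1 and 0.13 without SOX2-OFF replicate 3, in leave-one-out values of −0.29 to 0.13.

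Klf2 in SOX2-OFF against CEpiLC was called lower with every gene of at least 1 count (adjusted p 0.0499) and in DESeq2 (adjusted p 0.0308), and its adjusted p values under all alternatives lay between 0.00892 and 0.22. Klf4 in SOX2-ON against SOX2-OFF was called in limma-voom (0.42, adjusted p 0.0457, the lowest of its values, which reached 0.26). At a threshold of 0.01, Nanog in SOX2-OFF against CEpiLC and Nr5a2 in SOX2-OFF against EpiLC were not called. With the replicate block, 2 of 54 calls changed, as Nanog (0.86, adjusted p 0.026) and Tbx3 (0.55, adjusted p 0.0356) became called in SOX2-ON against SOX2-OFF, where the numbers were not taken to pair the libraries. The block changed no call in CEpiLC against EpiLC. Nr5a2 in EpiLC rested on 2 to 10 counts a library.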
